A study of Mus musculus with 8 samples.

Results

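Fos, Fosb, Fosl1, Fosl2, Jun, Junb, Jund, Atf3, Egr1 and Maff, the AP-1 subunits and immediate early transcription factors, were followed through 2 lists of accessible chromatin from MIN6 cells. These 10 genes, of 21887 protein-coding genes on the main chromosomes, were chosen by name. Each was given a window of its GRCm38 gene body and 25 kb on both sides, and every accessible region (peak) touching that window was counted. The 10 windows span 577569 bp and hold 71 of the 100099 peaks of the empty vector list and 104 of the 128538 peaks of the Klf4 list. MIN6 is an insulin-secreting tumour line of the mouse that stands in for beta cells of the pancreas, and the labels give its genotype as WT. The chromatin assay was ATAC-seq, in which a transposase tags DNA left free of nucleosomes, and the stated purpose was to see what misexpressed Klf4, a zinc finger factor of GC-rich and CACCC-type sites, does to accessibility genome-wide. The controls received pcDNA 3 empty vector and the other group pGloMyc-Klf4, so the lipid transfection of 48 hours is common to both groups, while the plasmid names differ and an effect of the backbone cannot be told apart from that of Klf4. The labels list 8 libraries, 4 biological replicates per plasmid, all of 1 line. The deposited lists are merged, with 1 value per group and peak, so no difference below has a replicate spread or a test, and an opening in every cell cannot be told apart from one in the transfected share of the cells.

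AP-1 is a dimer of basic leucine zipper proteins. JUN proteins pair with each other or with FOS proteins, which need a JUN partner, and the dimer binds the sequence TGACTCA. Several of these genes are immediate early genes: growth factors, stress and, in beta cells, glucose and calcium entry switch them on within minutes, without new protein synthesis, through kinases and factors already present in the cell. Their regulatory DNA is for that reason often accessible before any stimulus.

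Promoter sequences show what the accessible starts of these genes hold. The promoter table used here, from RefSeq for GRCm38.p6, gives 10 start sites for 8 of the genes, 3 of them for Maff, and does not list Fosl1 and Egr1. The 250 bases before a start are printed below, 5′ to 3′ on the strand of the gene, for the 5 genes with the most motif matches among those whose start lay in a peak (Junb tied with Fosb and Fosl2 and is left out by symbol order). Capitals mark every match, on either strand, to CACCC (KLF type), TGACGTCA (cyclic AMP response element, CRE), GCGTGGGCG (EGR type), TGACTCA (AP-1), the CArG core of the serum response element, or TGACATCA, a variant AP-1 site that was added after the sequences had been read. Fosb is chr7:19310046-19310295, minus strand; Fosl2 is chr5:32136222-32136471, plus strand; Jun is chr4:95052223-95052472, minus strand; Atf3 is chr1:191183334-191183583, minus strand; Maff is chr15:79347270-79347519, plus strand.
Fosb: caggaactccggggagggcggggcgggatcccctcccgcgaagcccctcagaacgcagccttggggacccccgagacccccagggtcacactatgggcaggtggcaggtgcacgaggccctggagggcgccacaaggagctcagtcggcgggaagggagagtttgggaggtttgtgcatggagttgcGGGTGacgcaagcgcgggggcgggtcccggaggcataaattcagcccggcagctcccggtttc
Fosl2: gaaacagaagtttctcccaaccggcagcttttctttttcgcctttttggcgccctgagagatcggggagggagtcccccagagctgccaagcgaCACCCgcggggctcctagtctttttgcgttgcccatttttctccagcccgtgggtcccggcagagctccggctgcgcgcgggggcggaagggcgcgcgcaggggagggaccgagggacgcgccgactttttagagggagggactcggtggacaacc
Jun: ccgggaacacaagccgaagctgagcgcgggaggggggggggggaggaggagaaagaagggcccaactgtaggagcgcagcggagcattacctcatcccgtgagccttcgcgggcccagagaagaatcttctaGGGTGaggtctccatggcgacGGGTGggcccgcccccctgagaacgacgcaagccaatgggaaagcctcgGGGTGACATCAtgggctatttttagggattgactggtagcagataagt
Atf3: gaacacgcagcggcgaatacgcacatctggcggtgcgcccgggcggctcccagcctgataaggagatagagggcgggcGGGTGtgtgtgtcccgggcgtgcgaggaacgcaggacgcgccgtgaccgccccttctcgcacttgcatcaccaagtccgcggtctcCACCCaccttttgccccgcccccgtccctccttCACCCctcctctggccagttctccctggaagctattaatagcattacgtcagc
Maff: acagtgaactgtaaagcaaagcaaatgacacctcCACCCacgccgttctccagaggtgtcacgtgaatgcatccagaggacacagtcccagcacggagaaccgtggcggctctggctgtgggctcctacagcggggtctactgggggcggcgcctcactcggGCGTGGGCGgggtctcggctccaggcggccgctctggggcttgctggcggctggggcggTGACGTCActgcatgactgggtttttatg
Positions are counted back from the start site, with -1 the base next to it. The Jun sequence has 3 CACCC matches, the last of which (from -48 to -44) overlaps the TGACATCA match from -45 to -38. The start region of Maff at position 79348402, which is not printed, also holds 3 CACCC matches and 1 TGACATCA match. TGACATCA was left out of the ranking by number of matches, and without it this region ties with the printed Maff region at 3. The Maff sequence has a CRE match from -29 to -22, an EGR match from -88 to -80 and a CACCC match from -216 to -212. Atf3 has 3 CACCC matches, and Fosb and Fosl2 have 1 each. CACCC is a short word held by 52.0% of all 32851 RefSeq promoters of this length. CRE is in 1.55% of them, EGR in 0.536%, TGACTCA in 4.46%, the CArG core in 1.47% and TGACATCA in 2.93%. No match to TGACTCA or to the CArG core was in any of the 10 start regions. A match describes letters only, and its absence says only that these letters are not in this window.

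Chromatin around the 10 genes was accessible at more places in the Klf4 list. The windows held 71 peaks with the empty vector and 104 with Klf4, a ratio of 1.46, and peaks covered 69616 bp and 90309 bp, a ratio of 1.30. These lengths are 12.1% and 15.6% of the summed windows. The median of the 10 genes was 13.35% and 16.56%, where the median protein-coding gene had 4.37% and 5.54%. Windows of the 10 genes were also shorter, with a median of 55586.5 bp against 67151 bp for all coding genes. Fosl2 with the empty vector (4.00%) was below the 4.37% of the median coding gene. Jun, with 2 and 4 peaks, was below the median peak numbers of 5 and 7. Peak number was higher with Klf4 for 9 of the 10 genes and equal for Junb, beside 59.5% of all coding genes with more peaks. Those are 13030 genes. All 10 genes here have a peak in either list, as do 19286 of the 21887 coding genes. The number of peaks in windows of all coding genes was itself 1.30 times as high with Klf4, and 1.28 times on the main chromosomes as a whole. More peaks around these genes is therefore also the pattern of the whole list.

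**Figure D1:**
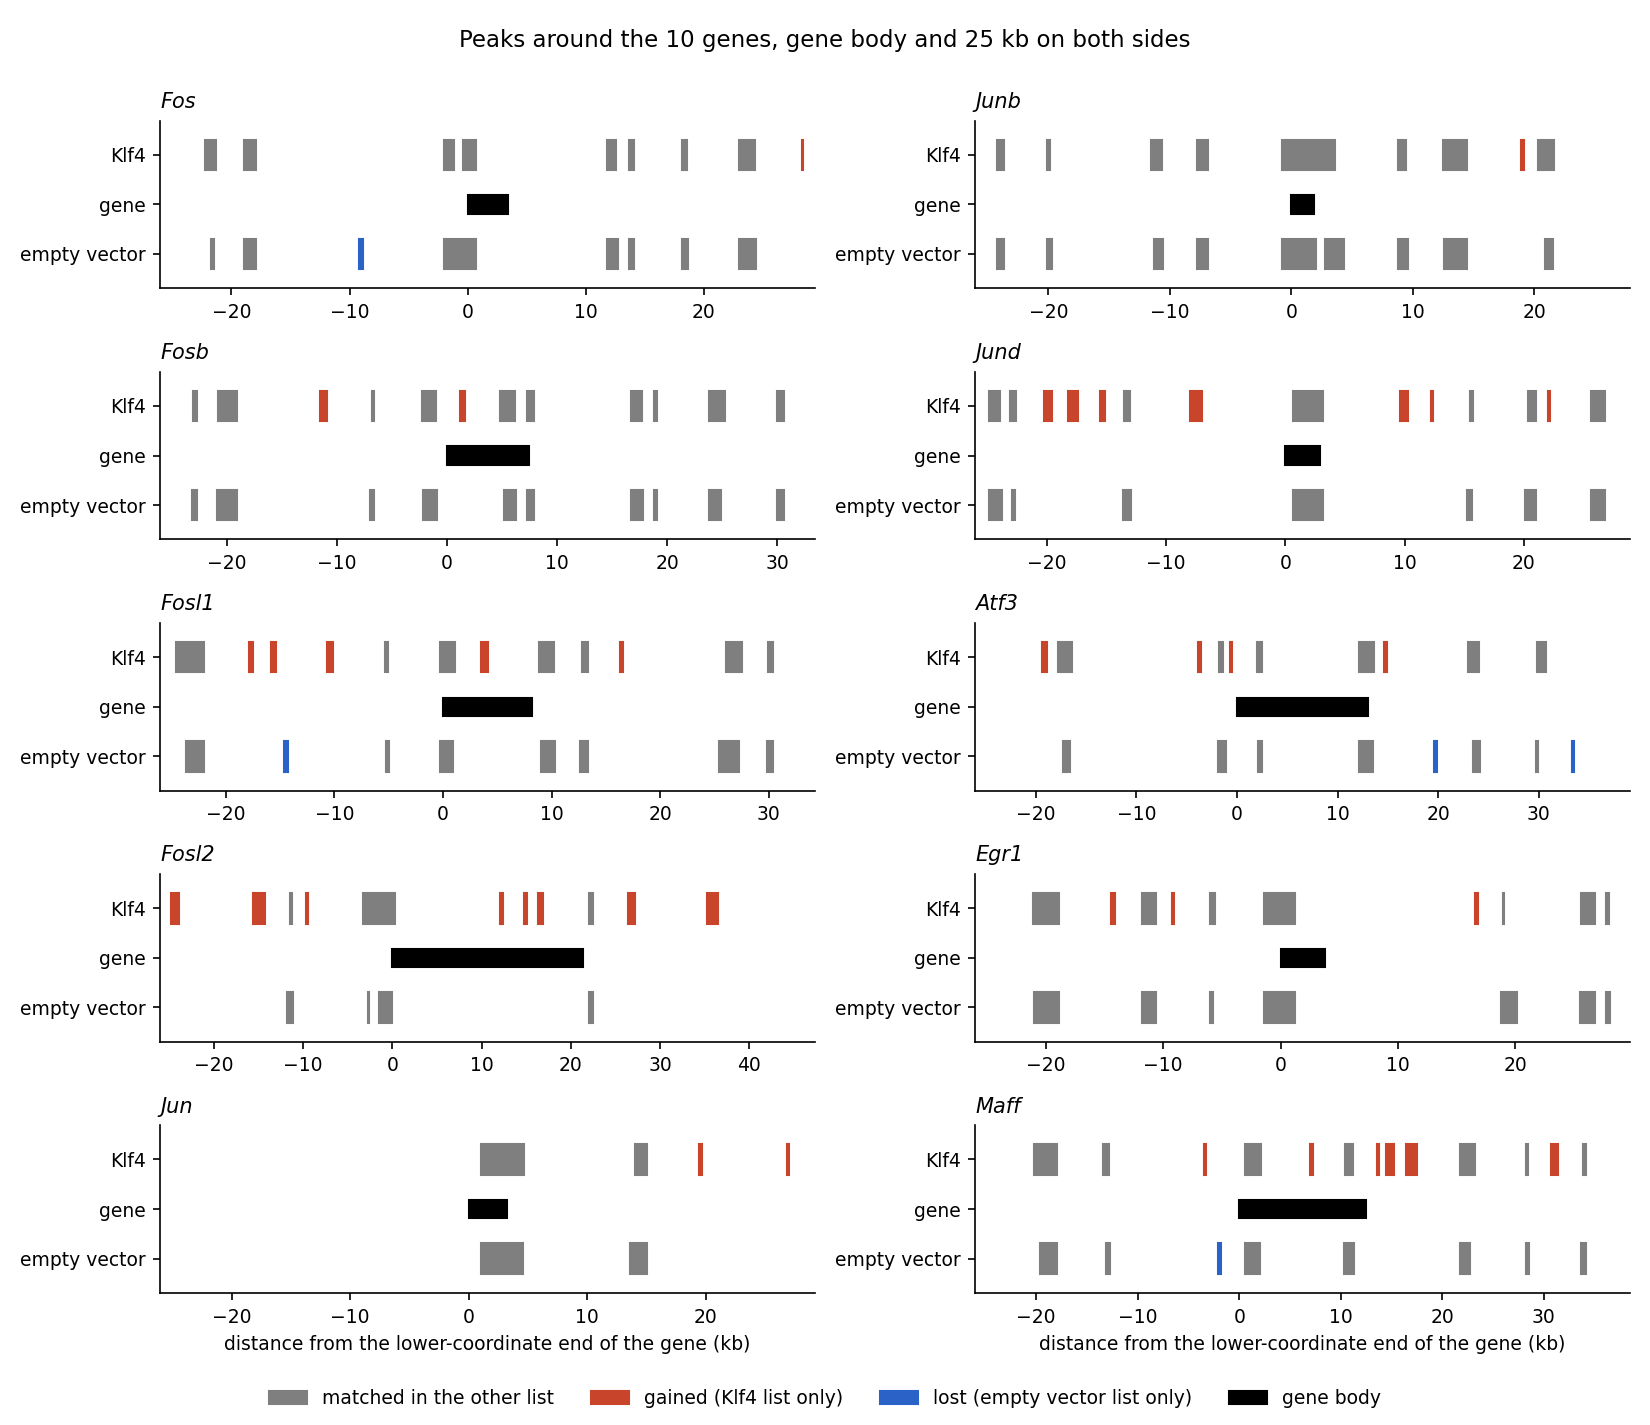
Peaks of the empty vector list (lower row) and the Klf4 list (upper row) around each gene body (black), by distance in kb from the lower-coordinate end of the gene; grey peaks have a counterpart in the other list, red peaks are in the Klf4 list only and blue peaks in the empty vector list only. Each gene has a grey peak over or beside an end of its body with both plasmids, and the 39 red peaks are spread over the windows, with 8 of them around Fosl2 and 7 around Jund.

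A peak was matched when a peak of the other list overlapped it by at least 1 bp, gained when it was in the Klf4 list without such a counterpart, and lost when it was in the empty vector list without one. The gene's covered length was compared as log2 of the Klf4 length over the empty vector length, with 500 bp added to both, and a gene was called higher or lower past a 1.5-fold difference on that scale. Peak strength is the authors' −log10 q, the confidence of the peak caller. It was used to describe and rank peaks within a list, and as a cut-off set at the same value in both lists, which need not mean the same strength where depth differs.

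Of the FOS genes, Fosl2 differed most between the lists in peak number and covered length. Fosl2 encodes FRA-2, a FOS-family subunit that, unlike c-FOS, lacks a strong activation domain. Its window (chr5:32136472-32157840 and flanks) held 4 peaks with the empty vector and 11 with Klf4, of which 8 were gained and none was lost. Covered length was 2857 bp and 9793 bp, 3.43-fold higher with Klf4 (log2 1.62), a value higher than in 98.1% of all coding genes. The gain was spread over the locus. Of the gained peaks 3 lay inside the gene, at chr5:32148569-32148877, chr5:32151278-32151567 and chr5:32152816-32153319, where the empty vector list has no peak at all. The strongest gained peak of all 10 windows, chr5:32120877-32122193, is 1317 bp wide and lies 14279 bp upstream of the start, with a −log10 q of 32.8. It is the only gained peak here with a −log10 q of at least 20.

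Peaks at the Fosl2 start were in both lists with different outlines. With the empty vector a 190 bp peak (chr5:32133695-32133884) and a 1481 bp peak (chr5:32134990-32136470) were separated by 1105 bp. The larger ends 2 bp before the start site, and its −log10 q of 198 placed it in the top 1.34% of its list. The Klf4 list has 1 peak of 3656 bp over the same place (chr5:32133128-32136783), which spans the gap and the start site, with a −log10 q of 91.4, in the top 3.93% of its list. No other coding gene overlaps the Fosl2 window, so all of its peaks have Fosl2 as their nearest coding gene.

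Fos encodes c-FOS, the textbook immediate early gene. Its window (chr12:85473890-85477274 and flanks) held 8 peaks with the empty vector and 9 with Klf4, with 1 gained and 1 lost, and 7684 bp against 7022 bp were covered (log2 -0.12). Fos was thus among the 2 genes with less covered length in the Klf4 list. Its log2 value was -0.45 with a window of 10 kb, -0.03 with 50 kb, -0.06 and -0.02 at −log10 q of at least 5 and 20, and 0 in the gene body alone. The start peak of the empty vector list, chr12:85471876-85474635 (2760 bp, −log10 q 128), corresponds to a pair of peaks in the Klf4 list. These are chr12:85471880-85472731 (852 bp, −log10 q 132) and chr12:85473474-85474635 (1162 bp, −log10 q 111), and only the latter spans the start. The outer edges of the pair lie within 4 bp of those of the single peak, and the 742 bp between them, upstream of the start, are what the Klf4 list leaves out. The strongest peak of the window lies upstream, 17907 bp from the gene with the empty vector (−log10 q 336, top 0.203% of its list) and 17947 bp from it with Klf4 (−log10 q 269, top 0.152%).

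Fosb, whose splice form ΔFOSB is known for its long life in stimulated neurons, had 10 peaks with the empty vector and 12 with Klf4 around chr7:19302696-19310118. All 10 were matched and 2 peaks were gained, 1 of them inside the gene at chr7:19303901-19304329. Covered length was 8658 bp and 9918 bp (log2 0.19). The start peak, chr7:19309989-19310625 and chr7:19309998-19310610 in the 2 lists, was nearly the same stretch, 637 bp and 613 bp wide. Fosl1, which encodes FRA-1, a subunit often induced later than c-FOS and itself an AP-1 target, had 8 and 12 peaks around chr19:5447698-5455938, with 5 gained and 1 lost. Covered length was 7818 bp and 10293 bp (log2 0.38), and in the gene body alone the log2 value was 0.68, past the 1.5-fold threshold. A peak over the lower-coordinate end of Fosl1 was in both lists (chr19:5447446-5448619 and chr19:5447433-5448833), and a weak gained peak lay inside the gene (chr19:5451182-5451816, −log10 q 1.79). The Fosl1 window also holds 6 other coding genes, and of its 5 gained peaks 1 has Fosl1 as the nearest coding gene.

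Jun and Jund had main peaks of similar outline in the 2 lists, Junb had its start peak fused with the next, and the 3 differed in what lay around them. Jun encodes c-JUN, the principal DNA-binding partner in AP-1 and an activator of its own promoter. It had the fewest peaks of the 10 genes, 2 with the empty vector and 4 with Klf4, and 5008 bp and 5150 bp covered (log2 0.04) around chr4:95049036-95052222. Its start peak was 3600 bp wide with the empty vector (chr4:95050041-95053640, −log10 q 58.9) and 3590 bp with Klf4 (chr4:95050086-95053675, −log10 q 59.0), and it holds the sequence printed above. Both gained peaks lie upstream, 16234 bp and 23615 bp from the start, and are 269 bp and 242 bp wide.

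Junb, which encodes a JUN protein that activates weakly and can restrain c-JUN, was the gene with equal peak numbers, 9 and 9, around chr8:84976909-84978748. It had 1 gained peak and none lost, yet the numbers tied because a pair of empty vector peaks became 1 in the Klf4 list. These were chr8:84976173-84978975 (2803 bp, over the gene) and chr8:84979705-84981230 (1526 bp, upstream), and the Klf4 list has chr8:84976154-84980512 (4359 bp) across the 729 bp between them. Covered length was 10305 bp and 11325 bp (log2 0.13), the longest of the 10 genes in either list. The 1 gained peak lies inside the neighbouring gene Hook2.

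Jund, the JUN gene that is expressed broadly and without stimulation, had 7 peaks with the empty vector and 14 with Klf4 around chr8:70697739-70700616. All 7 empty vector peaks were matched, and the 7 further peaks were all gained. Covered length was 7019 bp and 10631 bp, 1.51-fold, and with 500 bp added to both the log2 value of 0.57 fell just short of the 1.5-fold threshold. It was past it with windows of 10 kb (0.72) and 50 kb (0.69) and with 100 bp added (0.59), and short of it at −log10 q of at least 5 (0.42), with peaks of at least 500 bp (0.50), with nearest-gene peaks (0.46) and in the gene body alone (0.00). No gained peak was in the gene or within 5 kb of it: the nearest were 6736 bp downstream and 6967 bp upstream. Only 1 of the 7 has Jund as its nearest coding gene, and the window holds 4 other coding genes, among them Lsm4. The large peak over the gene was nearly the same in the lists, chr8:70698348-70700863 and chr8:70698343-70700931, and began 609 bp and 604 bp past the listed start site, so the start of Jund lay in no peak.

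Atf3 and Maff are both stress-induced genes, and both had more peaks and more covered length in the Klf4 list. Atf3 encodes a CREB-family protein that pairs with JUN proteins and, as a homodimer, represses. It had 8 and 10 peaks around chr1:191170296-191183333, with 4 gained and 2 lost, the most losses of the 10 genes. Covered length was 4544 bp and 6914 bp, 1.52-fold, with a log2 value of 0.56 that also fell just short of the threshold. It passed with 100 bp added (0.59) and was 0.12 with a window of 10 kb, 0.03 in the gene body alone and 0.05 at −log10 q of at least 20. Its start peak was matched (chr1:191182465-191183842, 1378 bp, and chr1:191182440-191183889, 1450 bp). Of the 4 gained peaks 3 lie within 5 kb of the gene, at chr1:191166450-191166706, chr1:191169625-191169795 and chr1:191184922-191185203. The last is 1589 bp upstream of the start, and both lost peaks lie further upstream, 6594 bp and 20253 bp away.

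Maff encodes a small MAF protein, a leucine zipper factor without an activation domain that dimerises with CNC and BACH partners. Its window (chr15:79346621-79359078 and flanks) had 8 and 13 peaks, with 6 gained and 1 lost. Covered length was 6675 bp and 10479 bp, 1.57-fold (log2 0.61), just past the threshold. That call was lost with peaks of −log10 q of at least 5 (log2 0.42), with nearest-gene peaks (0.08) and in the gene body alone (0.10). The main start peak holds 2 of the 3 listed starts in both lists (chr15:79347181-79348693, −log10 q 118, and chr15:79347188-79348734, −log10 q 90.7). Of the gained peaks 5 lie in or within 5 kb of the gene: chr15:79343148-79343374 upstream, chr15:79353550-79353914 inside it, and chr15:79360195-79360405, chr15:79361090-79361878 and chr15:79363058-79364094 downstream. The downstream ones are at or in the neighbour Tmem184b, and 2 of the 6 gained peaks have Maff as their nearest coding gene. The strongest lost peak of the 10 windows, chr15:79344569-79344816 (248 bp, −log10 q 6.49), lies 1805 bp upstream of Maff, and the gained peak upstream is 1195 bp from it.

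Egr1 encodes a zinc finger factor that is induced with Fos by the same kinases and is not an AP-1 subunit. It had 7 and 10 peaks on chromosome 18, all 7 matched and 3 gained, none of them within 5 kb of the gene. Covered length was 9048 bp and 8784 bp (log2 -0.04), so Egr1, like Fos, had more peaks but less covered length in the Klf4 list. The peak over its lower-coordinate end was 2598 bp and 2584 bp wide. Among the matched peaks, 1 that lies 15070 bp beyond the gene spanned 1302 bp in the control list but 169 bp in the Klf4 list.

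**Figure D2:**
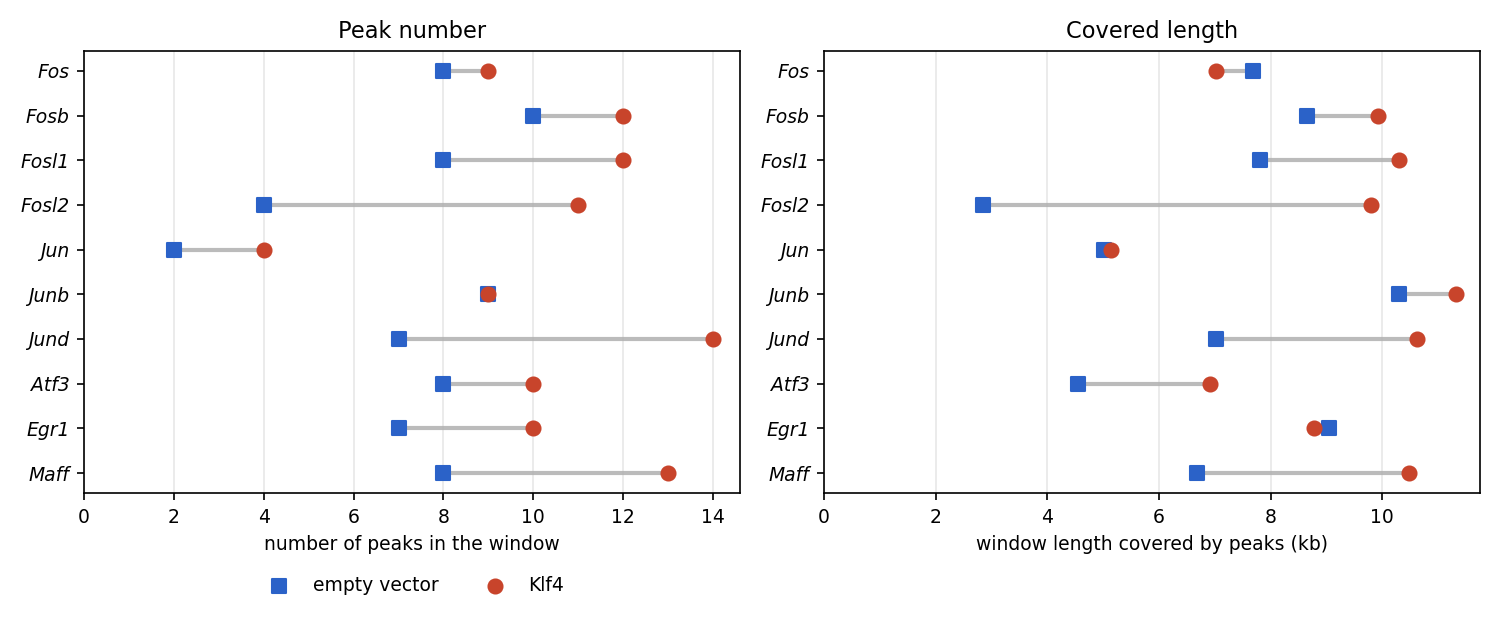
Number of peaks (left) and window length covered by peaks in kb (right) for each gene in the empty vector list (blue squares) and the Klf4 list (red circles), 1 merged list per group without error bars. Fosl2 and Jund have the widest gap in peak number (7 peaks each) and Fosl2 the widest in covered length, while Junb has equal numbers and Fos and Egr1 have less covered length with Klf4.

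Across the 10 windows, most peaks of the empty vector list had a Klf4 counterpart under the 1 bp rule. Of the 71 empty vector peaks 66 were matched and 5 (7.04%, 95% Wilson interval 3.04 to 15.4%) were lost, beside 17.6% of empty vector peaks in windows of all coding genes. That count depends on the overlap asked for: 9 were lost if a match needed 50% of the peak and 16 if it needed 50% of both peaks, which left 77.5% matched. Of the 104 Klf4 peaks 39 were gained (37.5%, interval 28.8 to 47.1%), beside 36.6% in windows of all coding genes, a share near that background and no result about these genes. Every gene had at least 1 gained peak, as did 72.3% of all coding genes (15826, of 19286 with a peak in either list). Of the 10, 4 (Fos, Fosl1, Atf3 and Maff) had at least 1 lost peak, as did 49.7% (10876). These intervals hold counting error alone, and peaks beside each other are not independent counts.

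The peaks around these genes are stronger than most, and strength moves with the share lost. Of the empty vector peaks 42 of 71 (59.2%) had a −log10 q of at least 20, where 31.5% did in windows of all coding genes, and in the Klf4 list it was 42 of 104 (40.4%) against 23.9%. Within classes of strength, 3 of 9 empty vector peaks with −log10 q under 5 were lost (33.3%, interval 12.1 to 64.6%; 45.2% in all windows), as were 2 of 20 from 5 to 20 (10%, 2.79 to 30.1%; 8.72%). At 20 or more 0 of 42 were lost (interval 0 to 8.38%; 0.124% in all windows), and by the rule of 3 counts a count of 0 allows a share of up to 7.14%. In each of the 3 classes the interval includes the value for all windows. How far strength accounts for the low share lost was not tested beyond these classes.

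Gained peaks were weaker and narrower than matched ones, as they were throughout the Klf4 list. Their median width was 374 bp and median −log10 q 6.08, against 931 bp and 31.5 for the 65 matched Klf4 peaks. On the main chromosomes the medians were 355 bp and 4.75 for gained and 631 bp and 10.8 for matched peaks. The 5 lost peaks had medians of 248 bp and 2.47. Of Klf4 peaks with −log10 q under 5, 18 of 24 were gained (75.0%, interval 55.1 to 88.0%; 57.1% in all windows). From 5 to 20 it was 20 of 38 (52.6%, 37.3 to 67.5%; 37.4%), and at 20 or more 1 of 42 (2.38%, 0.421 to 12.3%; 6.75%). Here too each interval includes the value for all windows. With both lists limited to −log10 q of at least 5 they had 62 and 80 peaks around the 10 genes, a ratio of 1.29, and at 20, a cut-off chosen after seeing the data, 42 peaks each. Read depth is unknown from these lists, and it moves both the number of weak peaks and the −log10 q of a given peak.

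**Figure D3:**
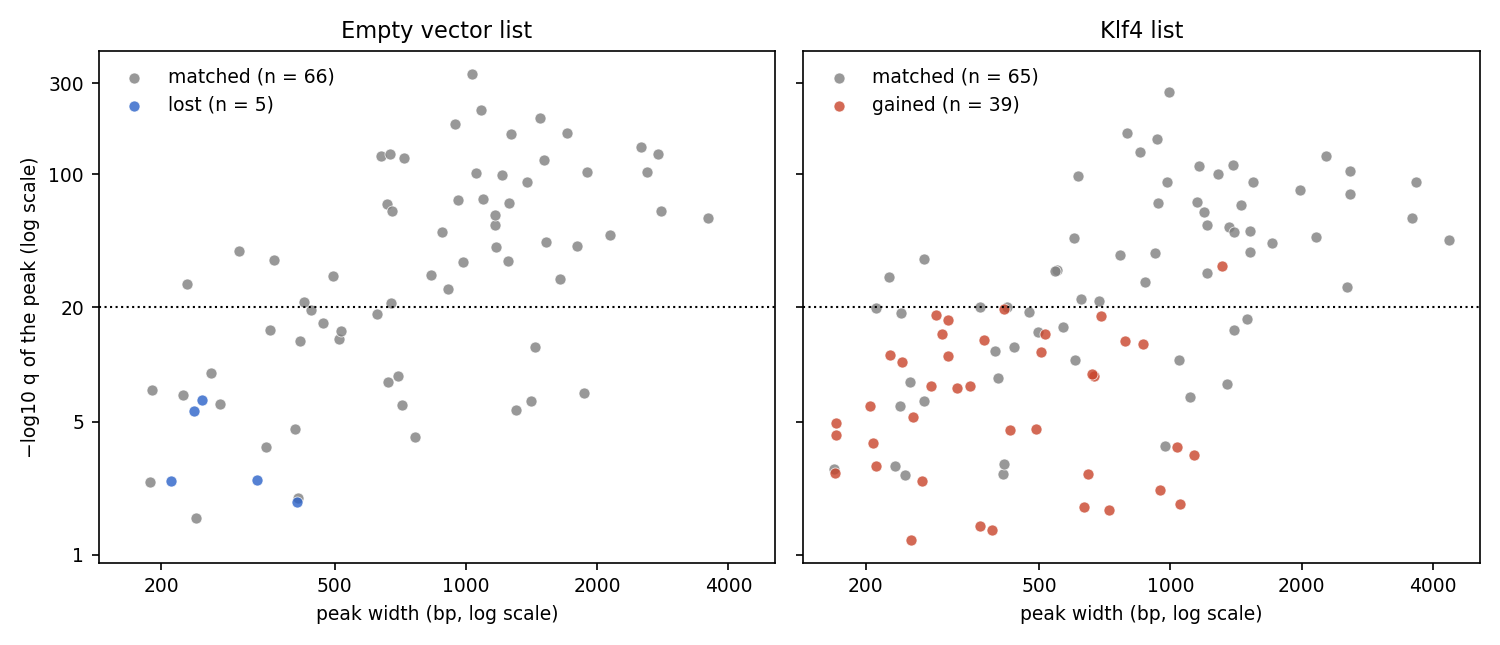
Peak width in bp against the authors' −log10 q (both axes logarithmic) for the 71 empty vector peaks (left) and 104 Klf4 peaks (right) around the 10 genes, with matched peaks in grey, lost in blue and gained in red and a dotted line at 20. All 5 lost peaks and 38 of the 39 gained peaks lie under the line.

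Gained peaks were found close to the genes as well as far from them. Inside the gene bodies 6 of 19 Klf4 peaks were gained, within 5 kb of them 7 of 13, and further out 26 of 72. Of the 5 lost peaks 0 lay in a gene body and 1 within 5 kb. For the genes with a listed strand, 12 of 31 Klf4 peaks upstream and 14 of 35 downstream were gained. These are counts without a background by position, and differences between positions were not tested. The median gained peak lay 2833 bp from the closest empty vector peak, with a range of 403 to 12838 bp. Over all 10 genes 19 of the 39 gained peaks and 4 of the 5 lost ones have the member as their nearest coding gene.

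In covered length, 8 of the 10 genes were higher and 2 lower with Klf4. Of the 19286 coding genes with a peak in either list, 14845 were higher and 4420 lower, so these counts are near the background. The sign was not stable for genes near 0: with windows of 10 kb Egr1 was at 0.14 and Junb at -0.02, and with nearest-gene peaks Fosb was at -0.15. Past the 1.5-fold threshold were 2, Fosl2 and Maff, beside 23.0% of all coding genes called higher (5025, of 19286 with a peak). Called lower were 0, beside 1.54%. The nearest genes inside the threshold were Jund and Atf3. The median log2 ratio over the 10 genes was 0.28, against 0.21 over all coding genes and 0.28 over those with at least 1 peak in either list. A count of 2 of 10 is near the background. The difference of 20693 bp summed over the windows came from 19007 bp in gained peaks, less 1438 bp in lost peaks, and 3124 bp more in matched peaks. Fosl2 alone makes up 33.5% of it, Maff 18.4% and Jund 17.5%. Without Fosl2, an alternative chosen after seeing the data, the median log2 ratio was 0.19 and the ratio of covered lengths 1.21. Limited to −log10 q of at least 20 in both lists, the log2 ratio was 1.47 for Fosl2, 0.01 for Maff and -0.10 for Jund. The Fosl2 value then rests on the 1481 bp peak beside the start against Klf4 peaks of 3656 bp and 1317 bp. Fosl2 was at 1.16 with −log10 q of at least 5, 1.24 with windows of 50 kb and 1.94 in the gene body alone.

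**Figure D4:**
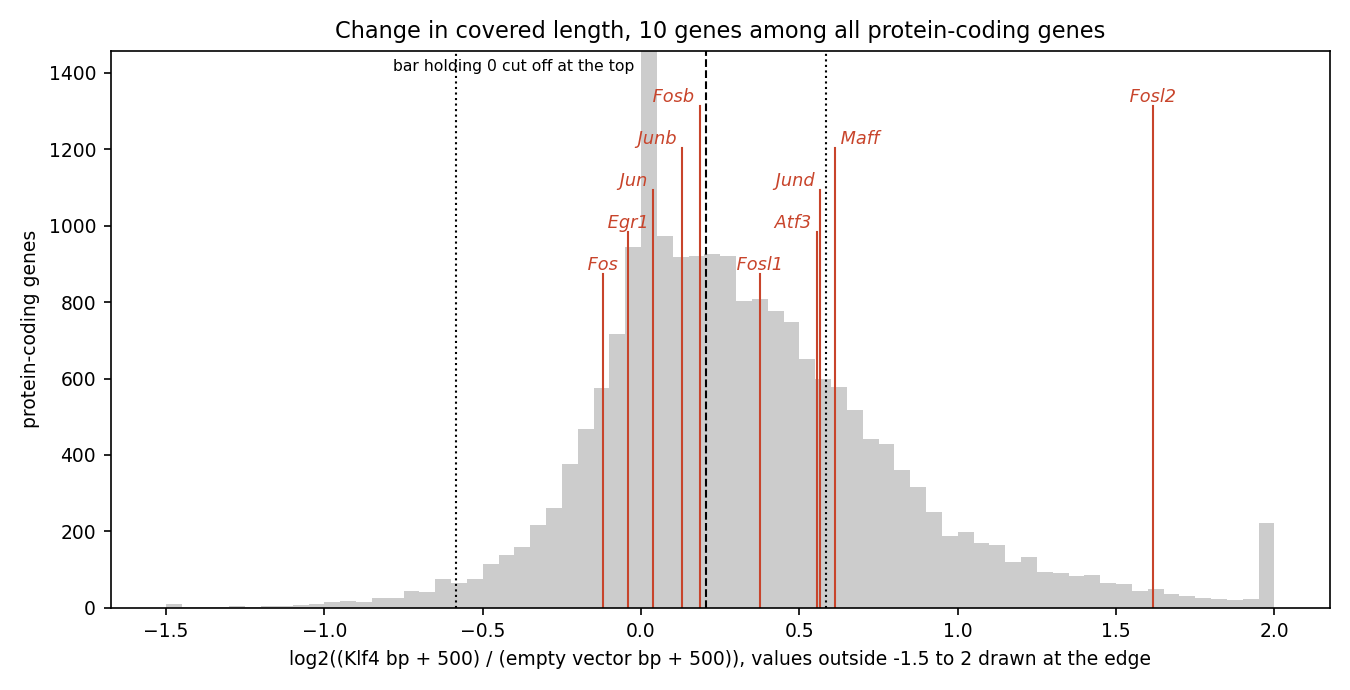
Histogram of the log2 ratio of covered length, Klf4 over empty vector with 500 bp added, for all 21887 protein-coding genes (grey; the bar holding 0 is cut off at the top and values outside the axis are drawn at its edges), with the 10 genes as red lines. The dashed line is the median of all genes (0.21) and the dotted lines are the 1.5-fold threshold; Fosl2 (1.62) stands far out in the right tail, Maff (0.61) is just past the line, and the other 8 lie between the thresholds.

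Matched peaks, which overlap by definition, did not always keep their outline. The overlapping peaks formed 61 pairs of 1 peak with 1 peak, 1 group split in the Klf4 list (the Fos start) and 2 groups fused in it (the Fosl2 and Junb starts). Over all peaks on the main chromosomes 98.8% of such groups were pairs, 0.638% were split and 0.577% fused. All 3 of the other cases here were at a gene start. Of the 61 pairs 25 were wider and 36 narrower in the Klf4 list (41.0% wider, against 46.9% of 79834 pairs overall), with a median log2 width ratio of -0.06 against -0.01. The matched peaks of Egr1, Fos, Jund and Jun covered less with Klf4, with changes of -1120, -444, -395 and -369 bp, and those of Atf3 and Fosl2 covered 1616 and 1509 bp more.

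Most of the listed start sites lay in a peak with either plasmid. Of the 10 listed starts, the empty vector list had 7 in a peak and the Klf4 list 8 (70.0% and 80.0%), against 44.3% and 49.7% of 32851 RefSeq starts, and the difference was the Fosl2 start, 2 bp outside its empty vector peak. The starts in no peak in either list were that of Jund and the most upstream of the 3 Maff starts. Under the 1 bp rule no peak holding a listed start of these genes was gained or lost. Over all RefSeq starts 10.3% of Klf4 peaks holding a start were gained and 1.19% of such empty vector peaks were lost. With 7 and 8 starts in peaks, this is no contrast to those shares. If a match needed 50% of both peaks, the start peaks of Fos and Fosl2 would not match. The 250 bases before these starts had a median GC content of 62.6% and a median of 16.5 CpG dinucleotides, against 52.4% and 6 for all RefSeq promoters. The Jund sequence and the most upstream Maff sequence had the fewest, 3 and 4 CpG.

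Other genes of the pathway were read the same way from lists chosen by function. Of 44 further leucine zipper and immediate early genes, such as the EGR, NR4A, MAF and ATF genes, 26 had more peaks with Klf4, 14 equal numbers and 4 fewer. In covered length 9 were called higher and 0 lower, with a median log2 ratio of 0.35. The highest were Mafk, another small MAF protein (log2 1.02), Ccn2, a secreted matrix protein (0.84), and Zfp36, which destabilises mRNAs (0.75). The lowest were Atf7 (-0.43), Bach1, a repressor that dimerises with small MAF proteins (-0.29), and Nr4a3, an orphan nuclear receptor (-0.16). Of 23 upstream kinases and transcription factors, such as the MAP kinases, SRF and the ELK factors, 19 had more peaks, 2 equal and 2 fewer, 6 were called higher and 0 lower, and the median was 0.35. Map2k3, which phosphorylates p38 (0.92), Rps6ka2, a ribosomal S6 kinase (0.91), and Map2k2, which phosphorylates ERK (0.83), were highest. Mapk9 (-0.41) and Map2k4 (-0.28), a JNK and a kinase of JNKs, and Mapk10, another JNK (-0.20), were lowest. The background for both lists is the 23.0% called higher and the 59.5% with more peaks given above. The windows of the 23 upstream genes are also longer, with a median of 107064 bp against 67151 bp for all coding genes.

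Some genes share the pattern of Fos or Jun in these 2 lists. With the same numbers of empty vector, Klf4, gained and lost peaks as Fos there were 4 genes, of which Top1, C1ql1 and Nr2e3 were nearest in covered length (summed absolute log2 differences over the 2 lists of 0.0786, 0.545 and 0.572). For Jun there were 153, the nearest being Atraid (0.477), Gm26650 (0.480) and Cep76 (0.652). A likeness over 2 lists describes counts only.

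The labels were checked against 2 features of the lists. Rank 1 by −log10 q (17134) in the Klf4 list went to a peak in the body of Klf4, chr4:55529721-55530988, the gene that the plasmid carries. The matching empty vector peak had a −log10 q of 12.8, and the empty vector peak at the Klf4 start (chr4:55532451-55533410, −log10 q 32.2) was lost. Peaks near a marker gene do not separate cell types here: the 10 beta cell markers had 2 to 12 with the empty vector and 2 to 17 with Klf4, and the 3 fibroblast genes had 4 to 12 and 9 to 13. The ranges were 1 to 3 and 2 to 5 for 2 delta cell genes, 2 to 8 and 2 to 10 for 2 immune genes, 0 to 12 and 5 to 9 for 3 duct genes, 0 to 5 and 2 to 5 for 5 alpha cell genes, and 0 to 5 and 0 to 10 for 4 acinar genes. Of the 7 beta cell markers with a listed start 6, among them Ins1, Pdx1 and Nkx2-2, had it in a peak in both lists. Of marker genes of other cell types with a listed start, 1 of 2 alpha cell genes (Gcg) had it in an empty vector peak and 2 of 2 in a Klf4 peak, 0 of 2 delta cell and 0 of 2 fibroblast genes did in either list, 0 and then 1 of 4 acinar genes did, and 1 of 2 immune genes (Cd68) did in both. Whether other cells took part in any result here was not tested.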

How the data were processed

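ATAC-seq libraries of MIN6 cells, 4 per plasmid and 8 in all, were deposited as 2 merged broad peak lists, grouped by their labels. Per the submitters' processing notes, FastQC, Bowtie2, MACS2 and DiffBind were used with build mm10 (GRCm38). Options, versions, read filters, transposase shifting and whether merging came before or after peak calling are not given in the sources used here. The labels name an mRNA-seq kit for the libraries, which was not resolved. The authors' deposited values per peak are the fold enrichment, a ratio to local background, the −log10 p-value (not used), the −log10 q-value and a display score (not used). The fold enrichment was used within a list only. The −log10 q-value ranked peaks within a list and also served as an equal cut-off for both lists. Depth per library is unknown, and the number of weak peaks that pass depends on it.

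The lists held 100264 and 128726 peaks, of which 100099 and 128538 on chromosomes 1 to 19, X and Y were used; their smallest −log10 q was 1.02 and 1.00. Peaks touching a gene body of the RefSeq GRCm38.p6 table or 25 kb on both sides were counted, and covered length was the part inside the window. All genes listed were found by symbol. As a check of the build, 44.3% and 49.7% of RefSeq starts lay in a peak, and 4.34 to 5.80% after moving the lists by 100 kb. Positions are 1-based. The members and gene lists were chosen with earlier results of these data known, and nothing here is independent support of them. Named genes were all members, Klf4 and the 3 highest and 3 lowest of each pathway list; named peaks were the start peak, gained and lost peaks in or within 5 kb of a member, and the strongest gained and lost peak. Further peaks that are named were chosen after their values were seen. Shares have 95% Wilson intervals. Alternatives were peaks of −log10 q of at least 5 or 20, peaks of at least 500 bp, windows of 10 kb, 50 kb and the body alone, nearest-gene assignment, 100 bp added, 50% overlap and leaving out Fosl2; the cut-off of 20 and leaving out Fosl2 were chosen after seeing the data. On simulated data 2000 of 2000 lost and 4000 of 4000 gained peaks were found, and 0 of 200 windows were wrong. Scripts used Python 3.11.15 with matplotlib 3.10.9, scipy 1.17.1, pandas 2.3.3 and numpy 2.4.6.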

Additional observations from a re-analysis of the deposited data

How the results depend on the processing

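No paired analysis was possible because each group has 1 merged list without values per library, so neither a replicate block nor leaving out libraries was run. A share or the peak number ratio counted as moved outside its 95% interval, a count or length past 1.5 times and a log2 value past 0.58; 45 values that answer a comparison stayed and 29 moved, and none of these reversed, though the peak number ratio lost its direction. Among single genes the log2 ratio changed sign for Jund (-0.10 at −log10 q of at least 20), Fosb (-0.15 with nearest-gene peaks), Junb (-0.02) and Egr1 (0.14) with windows of 10 kb, and Jun (as far as -0.10, with peaks of at least 500 bp). The number of genes at least 1.5-fold higher, 2, became 1 at −log10 q of at least 5 or 20 in both lists, with nearest-gene peaks or without Fosl2, and 4 with 100 bp added; it was 3 with windows of 10 kb and of 50 kb, where Jund passed, and 2 in gene bodies, where Fosl1 (0.68) passed and Maff (0.10) did not. The 39 gained peaks became 20 and 69 with windows of 10 and 50 kb, 6 in gene bodies, 19 by nearest gene, and 21, 15 and 1 for peaks of −log10 q of at least 5, of 500 bp and of −log10 q of at least 20. The 5 lost peaks became 3, 11 and 0 with windows of 10 and 50 kb and the body, 9 and 16 with 50% overlap of the peak or of both, and 2, 0 and 0 under the same 3 peak filters. The share of empty vector peaks matched, 93.0%, became 77.5% with 50% of both peaks and 100% in gene bodies, for wide peaks and at −log10 q of at least 20. That of Klf4 peaks, 62.5%, became 52.9% with 50% of both, and 73.8, 75.4 and 97.6% under the filters. The peak number ratio became 1.00 (42 against 42) at −log10 q of at least 20. The median log2 ratio ran from 0.01 in gene bodies (all genes 0.02) to 0.38 at 50 kb (all genes 0.26).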
